A study of Mus musculus with 6 samples.

Results

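The Olig genes encode basic helix-loop-helix (bHLH) transcription factors, and Bhlhe22 and Bhlhe23 encode their closest relatives within that class. The group was formed by gene symbol: every probe set annotated with exactly 1 symbol, where that symbol was Olig1, Olig2, Olig3, Bhlhe22 or Bhlhe23. Of these 5 symbols, 4 had such a probe set, with 1 probe set each, among 18193 genes named on the array in this way. Bhlhe22 had none and was not analysed here.

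The study hybridised RNA from the ventral forebrain of mouse embryos at E13.5 (the letter stands for embryonic day) to Affymetrix MOE430 2.0 arrays. Olig2-/- embryos, called the knockout here, were represented by replicates 2, 4 and 5, and Olig2+/+ embryos, the wild type, by replicates 1, 4 and 5, so that n = 3 arrays per genotype. Each array carried pooled RNA of 3 brains. The stated number of replicates was 5 per genotype, of which the series holds 3 each. The series design text speaks of ventral forebrain and the sample labels of ventral telencephalon. How the Olig2 allele was made, what part of the gene it removes, and which strain and litters were used could not be read from the labels. Each value is a log2 expression value of 1 probe set, so a difference of 1 is a 2-fold difference. About 38% of the values on each array (37.9% to 38.5%) sat within 0.1 of a common floor at 2.27, and the array medians were 3.14 to 3.19. Because the arrays were made from bulk tissue, fewer cells that express a gene and less RNA per cell cannot be told apart.

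In the embryonic neural tube Olig2 acts mainly as a repressor, is induced by Sonic hedgehog (Shh) signalling, and is required for motor neurons and for most oligodendrocyte precursors. Olig1 lies beside it on the same chromosome, is expressed in many of the same ventral progenitors, and is needed later for oligodendrocyte maturation. Olig3 marks other progenitors, among them those of the thalamus and of the dorsal hindbrain and spinal cord. Bhlhe23 is known from retinal rod bipolar cells and Bhlhe22 from retinal interneurons, cortical projection neurons and spinal interneurons.

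Some arrays stood apart or resembled the other genotype. Over all probe sets, the array closest to knockout replicate 2 was wild-type replicate 4 (Pearson's r = 0.9975 across probe sets), whereas knockout replicates 4 and 5 were closest to each other (r = 0.9973). Markers of meninges and mesenchyme (5 of 5 with a probe set) averaged 5.10 in log2 on knockout replicate 2, against 2.73 and 2.74 on the other knockout arrays and 2.82 to 3.64 on the wild-type arrays. The choroid plexus gene Ttr ranged from 4.85 to 9.99 on the knockout arrays and from 3.46 to 10.96 on the wild-type arrays. Results are therefore also given without knockout replicate 2 and wild-type replicate 4. As for the tissue, 7 of 8 markers of the ventral telencephalon (subpallium) were above the array median on every array. The exception was Nkx2-1, the homeobox gene of the medial ganglionic eminence, at 2.72 to 2.95 on the knockout arrays and 2.69 to 3.36 on the wild-type arrays. Lhx6 and Lhx8, of the same list, read 8.22 to 9.10 and 9.91 to 10.25 over all arrays. The Nkx2-1 probe set alone does not show whether that region was in the tissue. All 6 thalamic markers also lay above the median on every array, and all 5 hindbrain and spinal cord markers with a probe set were at the floor.

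Olig2, the targeted gene, lies at chr16:91225550-91228677 on the mouse build GRCm38.p6. Its probe set read 7.48, 7.53 and 7.76 on knockout replicates 2, 4 and 5, against 8.20, 8.22 and 8.42 on wild-type replicates 1, 4 and 5 (log2 values). Every knockout array was below every wild-type array, with 0.45 between the nearest arrays, and every knockout array was still well above the floor. The means were 7.59 ± 0.15 in the knockout, against 8.28 ± 0.12 in the wild type (SD, n = 3 each). The log2 difference of -0.69 (SE 0.11, 95% interval -0.96 to -0.43) corresponds to a level 1.62-fold lower in the knockout, with a range of 1.34 to 1.94-fold from the interval. In limma, adjusted over all 22565 probe sets that passed the filter on dim values, the adjusted p was 0.511 and the unadjusted p 0.000767, so Olig2 did not pass the threshold of 0.05. The labels do not say whether this probe set lies in the altered part of the allele, and its signal in the knockout was not taken as a measure of functional transcript.

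Olig1, whose first base lies 44.2 kb from that of Olig2 at chr16:91269769-91271939, differed in the opposite direction. Its probe set read 8.47, 8.55 and 8.02 on knockout replicates 2, 4 and 5, against 7.17, 6.48 and 6.30 on wild-type replicates 1, 4 and 5. The groups did not overlap, and 0.84 on the log2 scale separated the lowest knockout array from the highest wild-type array. The means were 8.35 ± 0.29 in the knockout, against 6.65 ± 0.46 in the wild type (SD, n = 3 each), a log2 difference of 1.69 (SE 0.27, 95% interval 1.04 to 2.35) or a 3.24-fold higher level in the knockout (2.05 to 5.10-fold). Limma's adjusted p was 0.511 and the unadjusted p 0.000788, so Olig1 did not pass either.

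**Figure D1:**
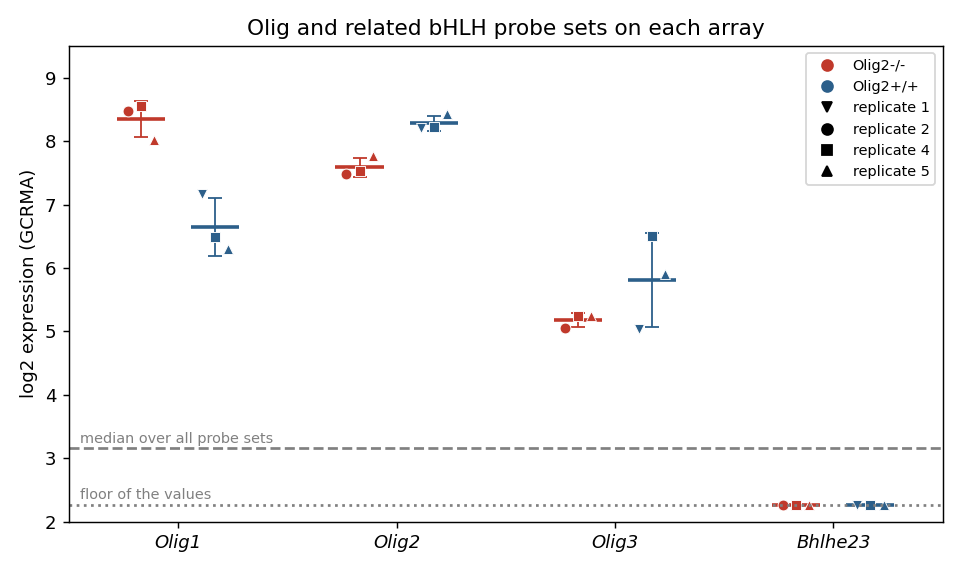
Log2 expression of each probe set on each array, with the knockout (red) left of the wild type (blue) for each gene; marker shapes give the replicate number, horizontal bars the means and error bars the SD (n = 3 arrays each). Olig1 is higher on all 3 knockout arrays, Olig2 is lower on all 3, the Olig3 groups overlap, and Bhlhe23 lies on the floor of the values at 2.27.

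Both genes have to be read against the whole array, on which differences of this kind were common. No probe set passed the adjusted threshold in limma (0% of 22565), 2121 (9.4%) had an unadjusted p below 0.05, and the smallest adjusted p was 0.511. The genotypes did not overlap for 16.2% of the probe sets, with the knockout higher for 8.96% and lower for 7.25%. Of the 3 members that passed the filter, Olig1 had no overlap and was higher, Olig2 had no overlap and was lower, and Olig3 overlapped. In size, the log2 difference of Olig1 was the highest of all 22565 probe sets, and also of all 45037 without the filter. The next highest probe set, which is unnamed here, differed by 1.67. For Olig2, 391 probe sets (1.73%) had a difference as low or lower. Ranked by unadjusted p, Olig2 stood 21st and Olig1 22nd.

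**Figure D2:**
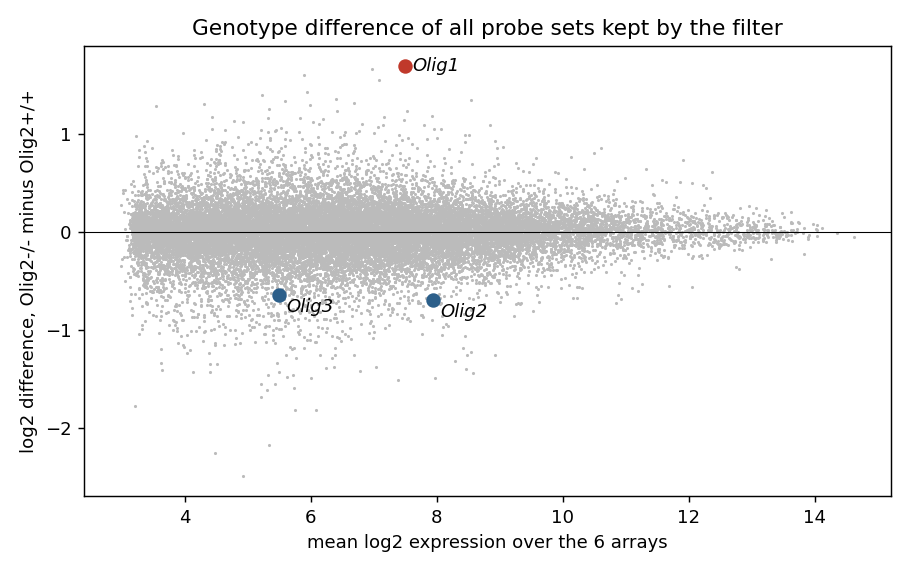
Log2 difference between knockout and wild type against the mean log2 expression over the 6 arrays, for the 22565 probe sets that passed the filter (grey), with Olig1 (red) and Olig2 and Olig3 (blue) marked. Olig1 is the uppermost point at 1.69, while Olig2 at -0.69 and Olig3 at -0.64 lie at the lower edge of the main cloud with other probe sets below them.

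The position of Olig1 at the top depended on the arrays used. Its log2 difference was the highest without wild-type replicate 1 (1.96), 3rd without knockout replicate 2 (1.63) and 16th without wild-type replicate 4 (1.61). Without both knockout replicate 2 and wild-type replicate 4, a choice made after seeing the data, it was 1.54 (SE 0.38), 30th from the top, and Olig2 differed by -0.67 (SE 0.14). Between these same 2 arrays, the most alike of the series over all probe sets, Olig1 read 8.47 in the knockout, against 6.48 in the wild type, a log2 difference of 1.99. Olig2 read 7.48 in the knockout, against 8.22 in the wild type, a difference of -0.74. The median probe set differed between them by 0.10 in either direction. By the size of the difference in that pair, Olig1 ranked 17th and Olig2 261st of 22565 probe sets, and Olig3, at -1.46, ranked 33rd.

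The other genes measured within 1 Mb of Olig2 on chromosome 16 showed smaller differences than Olig1 and Olig2. Of these 22 genes, 13 were higher and 9 lower in the knockout, none passed the threshold, and their log2 differences ran from -0.26 to 0.52. The nearest measured gene on the side of Olig1 was Ifnar2, a subunit of the type I interferon receptor, 147.2 kb from Olig2. It averaged 5.18 ± 0.18 in the knockout, against 5.43 ± 0.16 in the wild type (SD, n = 3 each), a difference of -0.25 (SE 0.13). On the other side, 211.5 kb away, Paxbp1, which encodes a protein that binds PAX3 and PAX7, averaged 9.52 ± 0.17 in the knockout, against 9.45 ± 0.20 in the wild type, a difference of 0.08 (SE 0.14). The upper end of the range was Ifngr2, a subunit of the interferon gamma receptor, named because of its value.

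**Figure D3:**
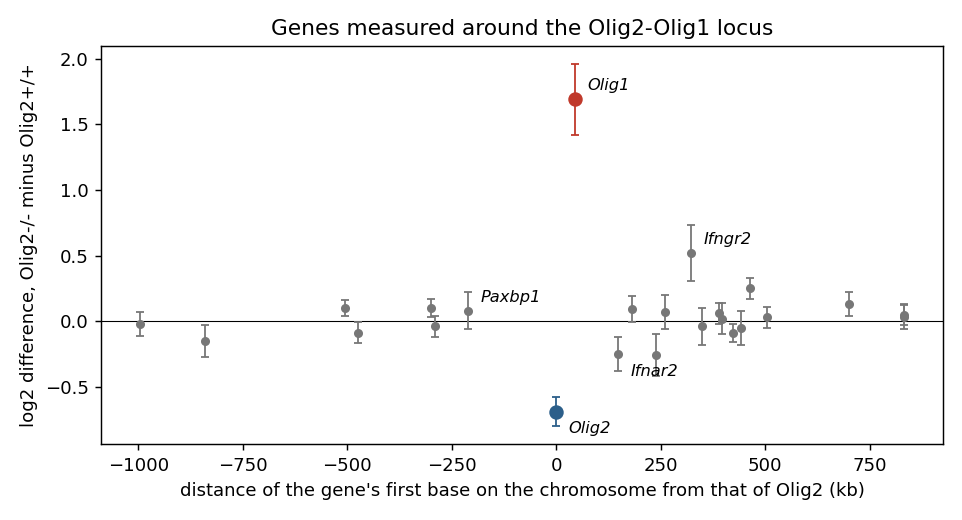
Log2 difference between knockout and wild type (points, error bars SE from limma) of each measured gene within 1 Mb of Olig2, against distance in kb from the first base of Olig2. Olig1, 44.2 kb away, stands at 1.69 and Olig2 at -0.69, whereas the other 22 genes lie between -0.26 and 0.52.

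Olig3, at chr10:19356539-19358604, was measured at a lower signal with more spread. Its probe set read 5.05, 5.24 and 5.24 on knockout replicates 2, 4 and 5, against 5.03, 6.51 and 5.90 on wild-type replicates 1, 4 and 5. Wild-type replicates 4 and 5 were above every knockout array, but wild-type replicate 1 was the lowest of all 6, so the groups overlapped. The means were 5.17 ± 0.11 in the knockout, against 5.81 ± 0.74 in the wild type (SD, n = 3 each). The log2 difference of -0.64 (SE 0.36, 95% interval -1.53 to 0.26) did not pass (limma adjusted p = 0.53, unadjusted p = 0.131). Single wild-type arrays set its size: it was -1.03 (SE 0.20) without wild-type replicate 1 and -0.29 (SE 0.27) without wild-type replicate 4. With knockout replicate 2 and wild-type replicate 4 both left out it was -0.23 (SE 0.33). The interval of the difference over all arrays includes 0.

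Bhlhe23, at chr2:180774381-180776900, was not detected. Its probe set read 2.27 on each of the 3 knockout arrays and on each of the 3 wild-type arrays, which is the floor of the values. It did not pass the filter and was not tested. Retina and lens markers were also at or near the floor: the 4 with a probe set averaged 2.35 on each knockout array and 2.35 to 2.39 on the wild-type arrays.

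The upstream sequences of Olig2 and Olig3 are shown because these are the members lower on average in the knockout whose promoters RefSeq gives in the table used here. They are the 250 bases before the annotated start, from 5′ to 3′ on the strand of the gene (plus for both), on GRCm38.p6 at chr16:91225300-91225549 for Olig2 and chr10:19356289-19356538 for Olig3. Capitals mark the letters TATAAAA, the core of a TATA box, searched on both strands.
Olig2: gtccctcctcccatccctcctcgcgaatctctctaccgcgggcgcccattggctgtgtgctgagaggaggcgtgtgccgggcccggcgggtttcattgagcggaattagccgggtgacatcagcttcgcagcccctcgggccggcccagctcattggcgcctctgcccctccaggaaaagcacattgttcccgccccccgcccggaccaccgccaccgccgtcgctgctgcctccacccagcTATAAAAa
Olig3: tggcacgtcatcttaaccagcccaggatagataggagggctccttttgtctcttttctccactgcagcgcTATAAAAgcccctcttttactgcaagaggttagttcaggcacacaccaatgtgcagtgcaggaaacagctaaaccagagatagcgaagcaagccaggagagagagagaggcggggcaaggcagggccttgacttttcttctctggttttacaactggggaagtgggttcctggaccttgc
TATAAAA was found once in each, beginning 8 bases before the annotated start of Olig2 and 180 bases before that of Olig3. It was present in 5.0% of the 32851 promoter windows of the same length in the table. The window of Bhlhe23 held none. The general bHLH recognition sequence, the E-box CANNTG, occurred in none of the bases shown for Olig2 and once in those for Olig3, as CAACTG 30 bases before the start, and in 66.2% of all windows. The form CATATG, which human OLIG proteins bind in vitro, was in neither, and in 3.5% of all windows. Guanine and cytosine made up 66.8% of the Olig2 window and 51.6% of the Olig3 window, against a median of 52.4% over all windows. A match is a description of these letters and was not tested for function.

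The genes whose brightest probe set followed each member most closely over the 6 arrays were found by Pearson's r among 10629 other genes. Since Olig1 and Olig2 separate the genotypes, genes that follow them separate the genotypes too: 14 genes (0.13%) reached an r of 0.95 for Olig1 and 20 (0.19%) for Olig2. Olig1 and Olig2 themselves ran opposite to each other (r = -0.98, Spearman's rho = -0.94), as a description of 6 arrays. The 5 genes most like Olig1 were Slc1a4, a neutral amino acid transporter (r = 0.981, rho = 0.886), Kyat1, a kynurenine aminotransferase (0.979, rho = 0.771), Vhl, which targets hypoxia-inducible factors for degradation (0.977, rho = 1.0), the sorting nexin Snx13 (0.976, rho = 0.886) and Atxn10 (0.976, rho = 0.943). They differed between the genotypes by only 0.10 to 0.24 on the log2 scale, against 1.69 for Olig1. The 5 most like Olig2 were the predicted gene Gm5089 (r = 0.998, rho = 1.0), the sulfiredoxin gene Srxn1 (0.991, rho = 1.0), the ribosomal protein gene Rps18 (0.985, rho = 0.943), Pcif1, which modifies mRNA caps (0.984, rho = 0.943), and Rccd1 (0.98, rho = 0.943). Gm5089, on chromosome 14, came closest to Olig2 in size as well, with 5.24, 5.25 and 5.42 on the knockout arrays, against 5.75, 5.78 and 5.97 on the wild-type arrays, a log2 difference of -0.53 (SE 0.10, limma adjusted p = 0.511).

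For Olig3 the closest gene was Neurog2, a proneural bHLH factor. Neurog2 read 9.02, 9.19 and 9.20 on knockout replicates 2, 4 and 5, against 9.09, 9.90 and 9.52 on wild-type replicates 1, 4 and 5 (r = 0.995, rho = 0.928). It shared with Olig3 the high value on wild-type replicate 4, the low one on wild-type replicate 1 and the narrow knockout group, with a log2 difference of -0.37 (SE 0.21, limma adjusted p = 0.527). The homeobox gene Otx1 (r = 0.964, rho = 0.50) was high on the same array, at 5.80, against 4.95 to 5.03 on the knockout arrays. The others were Pygo1, a coactivator of Wnt signalling (r = 0.966, rho = 0.985), the ligand gene Wnt5a (0.944, rho = 0.696) and the aldo-keto reductase gene Akr1b8 (0.938, rho = 0.87). Pygo1 and Wnt5a varied little over the arrays, from 5.02 to 5.12 and from 4.74 to 5.00. Their log2 differences were -0.06 and -0.11, against -0.39 for Otx1 and -0.53 for Akr1b8. An r of 0.95 was reached by 3 genes (0.03%) for Olig3.

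**Figure D4:**
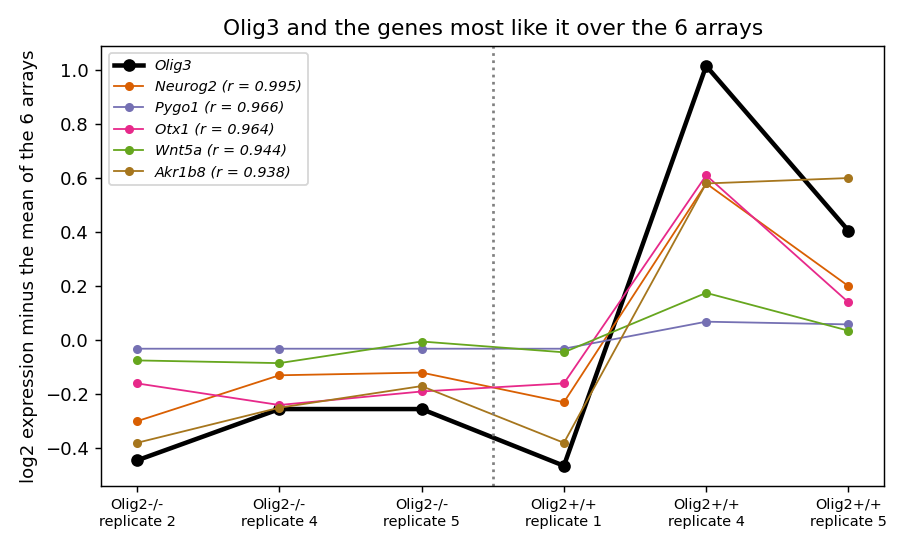
Log2 expression minus the mean of the 6 arrays (y axis) on each array (x axis, knockout left of wild type) for Olig3 in black and the 5 genes with the highest Pearson's r with it. All 6 genes peak on wild-type replicate 4 or 5 and are lower on wild-type replicate 1 and on the knockout arrays.

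Markers of the tissues in which the Olig genes are used were set beside these values. The 6 thalamic markers (Gbx2, Tcf7l2, Rora, Lhx9, Lef1 and Prox1) averaged 5.90, 6.25 and 6.46 on knockout replicates 2, 4 and 5, against 6.88, 6.94 and 6.63 on wild-type replicates 1, 4 and 5, so that the average of this list, like Olig1 and Olig2, separated the genotypes. Its members did not all go one way: Gbx2 (-1.38), Rora (-1.29), Tcf7l2 (-0.69) and Lhx9 (-0.52) were lower in the knockout, Lef1 differed by -0.02 and Prox1 by 0.22 at its brightest probe set (-0.615 and -0.476 at the others), and none passed limma's adjusted threshold. None of the 6 was at the floor. Olig3 did not follow that list on wild-type replicate 1, where the thalamic markers averaged 6.88 and Olig3 was at 5.03. The 5 genes of the thalamic ventricular zone and zona limitans, of which Wnt3 was at the floor, averaged 5.85 to 6.30 on the knockout arrays. On the wild-type arrays they averaged 5.86 to 6.63, with the lowest value on replicate 1 (5.86). This list includes Neurog2, named above for its likeness to Olig3, so it is not a separate observation. The 8 subpallial markers averaged 7.73 to 7.83 on the knockout arrays and 7.74 to 7.90 on the wild-type arrays. The part of tissue makeup in the differences of Olig1, Olig2 and Olig3 was not tested.

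Genes that work with or beside the Olig factors were described in lists, each gene by its brightest probe set that passed the filter. Over all 10630 genes measured, 49.4% were higher in the knockout and the median log2 difference was 0.0. No gene of any list passed limma's adjusted threshold, so the values below are descriptions.

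Partners of bHLH factors were measured in full. E proteins are the dimer partners of Olig and proneural factors, and Id proteins bind E proteins and keep them from DNA. Of 7 such genes, 4 were higher and 3 lower in the knockout, with a median log2 difference of 0.04. Id2 read 9.83, 9.81 and 9.66 on the knockout arrays, against 9.39, 9.44 and 9.49 on the wild-type arrays, a difference of 0.33 (SE 0.08, limma adjusted p = 0.511), and its second probe set differed by 0.81. Id4 went the other way at its brightest probe set (12.04 ± 0.13 in the knockout, against 12.28 ± 0.08 in the wild type, difference -0.24), and its other probe sets gave -0.08 and 0.13. The E protein genes Tcf12 and Tcf3 differed by 0.16 and 0.07 with overlapping groups, and their other probe sets ran from -0.21 to 0.19 and from -0.06 to 0.01.

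Of 25 other neural bHLH genes, only 9 passed the filter, 4 higher and 5 lower, with a median of -0.01. Neurod6, a marker of pallial projection neurons, read 8.57, 8.32 and 8.25 on the knockout arrays, against 7.84, 8.06 and 7.68 on the wild-type arrays, a difference of 0.52 (SE 0.13, limma adjusted p = 0.511) without overlap. Neurod2, also of that lineage, differed by 0.19 with overlap at its brightest probe set and by -0.05 at the other. The 5 pallial markers, Neurod6 among them, averaged 7.05 to 7.28 on the knockout arrays and 6.97 to 7.09 on the wild-type arrays. Of these markers, Tbr1 was also higher in the knockout without overlap, by 0.45 (limma adjusted p = 0.511). Eomes differed by -0.08, the dim Emx1 by 0.03 and Neurog2 by -0.37. The part of pallial tissue in the Neurod6 difference was not tested. Mycn, a regulator of progenitor growth, differed by -0.27 at its brightest probe set, but its others gave -0.01 and 0.30 and the mean of all was 0.01. Among the Hes and Hey repressors, which act below Notch, 5 of 8 were measured; 2 lay above 0 and 3 below, with a median of -0.05. Hes1 averaged 6.03 ± 0.21 in the knockout, against 5.63 ± 0.07 in the wild type (SD, n = 3 each), a difference of 0.40 (SE 0.12, limma adjusted p = 0.511) without overlap. Hes5 differed by 0.12 at its brightest probe set and by -0.18 at the other. Hes6 and Hey2 differed by -0.05 and -0.17, with Hes6 at -0.01 at its second probe set.

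Genes of the ventral patterning system that induces Olig2 or borders its domain showed no common direction: 5 of the 13 measured lay above 0 and 8 below, with a median of -0.05. Ptch1, the Shh receptor and itself a target of the pathway, averaged 10.83 ± 0.01 in the knockout, against 11.09 ± 0.18 in the wild type (SD, n = 3 each), a difference of -0.26 (SE 0.11, limma adjusted p = 0.511), but its second probe set differed by 0.18. Smo, the signal transducer, averaged 7.11 ± 0.18 in the knockout, against 7.52 ± 0.30 in the wild type, a difference of -0.41 at one probe set and -0.25 at the other, with overlapping groups. Gli3, a transcription factor of the pathway that acts largely as a repressor, differed by 0.18 (0.01 and 0.04 at its other probe sets), and Irx3, a homeobox gene that borders Olig2 in the spinal cord, by -0.32, close to the array median. The ligand gene Shh differed by -0.15 at its brightest probe set and by 0.31 at the other. The patterning gene Pax6 differed by 0.02 (other probe sets from -0.11 to 0.54).

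The oligodendrocyte lineage list held 21 genes, of which 12 passed the filter, 2 higher and 10 lower in the knockout, with a median of -0.18. It was drawn up without the Olig genes, and with earlier results for several of its members known. The dim ones included Sox10, Cspg4, Mag and Mog, genes of committed precursors and myelin. Bcan, a brain proteoglycan, read 3.94, 3.98 and 4.24 on the knockout arrays, against 5.51, 4.75 and 4.79 on the wild-type arrays, without overlap and with a difference of -0.96 (SE 0.23, limma adjusted p = 0.511). The myelin genes Cnp and Mbp differed by -0.32 and -0.25 at their brightest probe sets, with Cnp at -0.14 and 0.07 and Mbp at -0.40 at the others. Ncan, another proteoglycan, differed by -0.36 at its brightest probe set, while its other probe sets ran from -0.10 to 0.85. Pdgfra, a receptor gene of oligodendrocyte precursors, read 5.78, 4.05 and 4.36 on knockout replicates 2, 4 and 5. On wild-type replicates 1, 4 and 5 it read 6.24, 5.60 and 5.47, a difference of -1.04 (SE 0.49). The groups overlapped only through knockout replicate 2, the array with the highest average of meninges and mesenchyme markers (5.10). Wild-type replicate 1, with the next highest average of those markers (3.64), had the highest Pdgfra value of all arrays (6.24). The part of such tissue in the Pdgfra values was not tested. These 5 genes had the lowest p in a list with 10 of 12 genes below 0. Their shared direction at the brightest probe sets is therefore not a separate result, and none passed the test.

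A partner of Bhlhe22 and a gene repressed by their complex, both known from mice, were measured. Prdm8, which forms a repressor complex with Bhlhe22, read 7.18, 7.29 and 7.25 on the knockout arrays, against 6.88, 7.12 and 7.13 on the wild-type arrays, a difference of 0.20 (SE 0.09, limma adjusted p = 0.513). The groups did not overlap, by a narrow margin. Cdh11, a cadherin gene repressed by that complex, differed by 0.02 (SE 0.18).

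**Figure D5:**
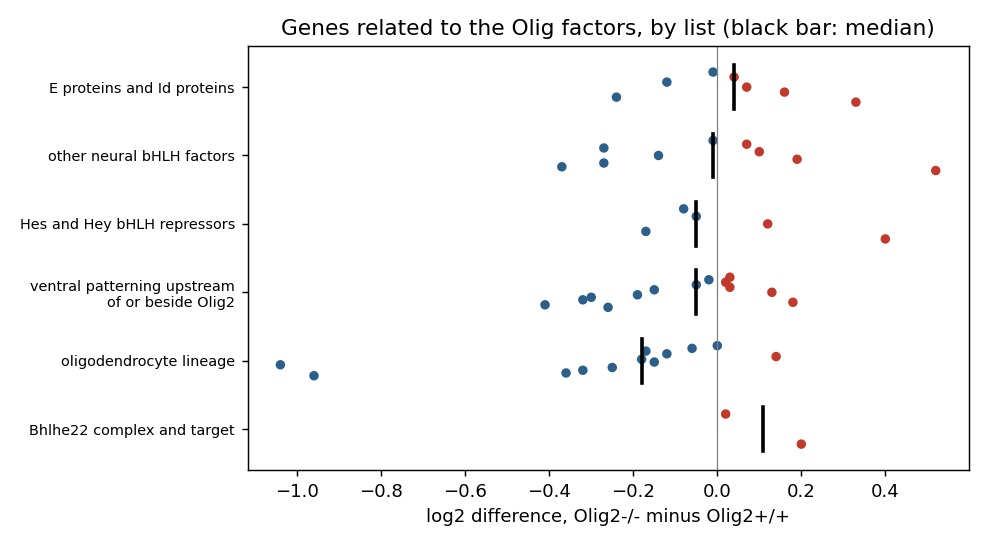
Log2 difference between knockout and wild type (x axis) of each measured gene of 6 lists related to the Olig factors, higher genes in red and lower genes in blue, with a black bar at the median of the list. The oligodendrocyte lineage list has 10 of 12 genes below 0 and a median of -0.18, and the other 5 medians lie between -0.05 and 0.11.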

How the data were processed

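The authors deposited 1 log2 value per probe set and array. The authors' design text names GCOS and MAS 5.0 for image processing and GCRMA for quantile normalization, summary and log2 transformation, with no versions. A detection filter is described there, but the deposited table holds all 45101 probe sets, including 64 controls. GCRMA leaves a floor, so differences of dim genes are compressed, and quantile normalization hides changes in total RNA.

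Probe sets were named from the platform annotation: 34945 had 1 symbol, 932 several and 9160 were unnamed here. A probe set was kept if above its array's median on at least 3 of 6 arrays. Genotypes were compared with limma 3.58.1 in R 4.3.3 (two-sided, Benjamini-Hochberg over 22565 kept probe sets, threshold 0.05), without a block. A value within 0.1 of the most frequent value of its array was at the floor, and a gene at the floor on every array was called not detected. Genes beyond the members were named by rule: up to 4 of lowest p per list, the 5 most correlated with each kept member, and the nearest measured gene on either side of the locus. Other genes are named where a sentence says so or as list members described with their values. Python 3.11.15 with pandas 2.3.3 and scipy 1.17.1 made the tables. The fit was also tested on simulated data with 50 known changes of each of 4 sizes. It called 0 of those of 0.5 in log2, 30 of 1.0, 44 of 2.0 and 48 of 3.0. It also called 11 of 22365 unchanged probe sets. The simulated spreads came from limma's own estimate, without differences between whole arrays, so these counts do not carry over to the real arrays. The members, lists and tests were chosen with earlier results of these data known. P-values measure the spread between 3 pools per genotype, whose number limits precision. Knockout and wild-type replicates 4 and 5 share a number, but the labels do not say what it marks.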

Additional observations from a re-analysis of the deposited data

How the results depend on the processing

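The genotype differences of Olig1, Olig2 and Olig3 kept their direction and stayed short of the adjusted threshold under all 15 alternatives: a replicate block, array weights, 3 other filters, median centring, a second quantile normalization, a robust variance with trend, each array omitted in turn, and omission of both knockout replicate 2 and wild-type replicate 4 (the last chosen after seeing the data). With single arrays left out, the difference of Olig1 ran from 1.52 to 1.96, that of Olig2 from -0.78 to -0.62 and that of Olig3 from -1.03 to -0.29. Under the replicate block they were 1.89, -0.68 and -0.97, with limma adjusted p of 0.511, 0.511 and 0.529. Only numbers 4 and 5 occur in both genotypes, so that fit took the differences from replicates 4 and 5 alone. Knockout replicate 2 and wild-type replicate 1, where Olig3 was lowest, did not enter them. Same-numbered arrays deviated from their genotype means with a correlation of -0.29 for number 4 and 0.32 for number 5, and knockout replicate 2 deviated with wild-type replicate 4 (0.38). No probe set passed under any of these alternatives. The count at unadjusted p below 0.05, 2121 here, was 1121 to 3490 with single arrays left out (lowest without knockout replicate 5 and highest without wild-type replicate 4; also 1205 when knockout replicate 4 was omitted and 1402 when wild-type replicate 1 was), 3491 with array weights and 3276 when knockout replicate 2 was omitted together with wild-type replicate 4. The cause was not tested. Bhlhe23 was at the floor on 6 of 6 arrays also with a distance of 0.5. With a gene's probe sets averaged, the list medians moved by no more than 0.05, and the median of the other neural bHLH genes turned from -0.01 to 0.01.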
